A study of Mus musculus with 8 samples.

Results

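The hedgehog pathway genes followed here were 9 genes taken by symbol from a table of 18540 genes: the ligands Shh, Ihh and Dhh, the receptor Ptch1, the signal transducer Smo, the transcription factors Gli1, Gli2 and Gli3, and the ligand-binding inhibitor Hhip. The study asked how its wound treatment changes transcription in the healing skin. The genes were measured by RNA sequencing of mouse wound skin in 4 control samples, numbered 1, 2, 3 and 5, and in 4 samples treated for 15 days with Z1C2Z, numbered 1, 2, 4 and 5. Z1C2Z is a nanocomposite of ZnO2 and CeO2 particles in a zinc imidazole framework, made with the higher of the study's CeO2 to ZnO2 ratios. In the wound experiments it was injected around full-thickness wounds on the back, and control wounds received PBS. Both C57BL and diabetic db/db mice were wounded in the study, and the strain, age and sex of the sequenced mice are not given in the sources used here. A pair of wounds was made on each mouse and no label ties a sample to a mouse, so p-values measure the spread between samples, which may not all be separate animals.

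Hedgehog ligands are secreted proteins that bind Ptch1 on a receiving cell. Without ligand, Ptch1 holds Smo inactive. With ligand, Smo is released and the GLI factors switch on target genes, among them Gli1, Ptch1 and Hhip themselves, so these transcripts are commonly read as a gauge of pathway activity. In skin, Shh comes from the epithelium of growing hair follicles and acts on neighbouring epithelial cells and on the dermal papilla. Dhh is best known from Schwann cells of peripheral nerves.

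The libraries held between 28856790 and 38974888 counted reads, and 15147 genes passed a filter on low counts. Of the 9 hedgehog genes 8 passed, and Ihh did not. None of the 8 passed the test between the groups in edgeR's quasi-likelihood test at an adjusted p under 0.05 over all tested genes, in either direction. Over all tested genes 4.28% were called higher and 3.85% lower in the Z1C2Z group. At an unadjusted p under 0.05 there was 1 member, Hhip, against 28% of all tested genes. DESeq2 also called 0 members, against 16.5% of all genes, with 1 at an unadjusted p under 0.05, against 25.9%. The log2 fold change was over 0 for 7 of the 8 and under 0 for Dhh, with a median of 0.32 against 0.01 over all tested genes. In none of the 8 did the values of the groups separate, whereas every Z1C2Z sample lay above every control sample for 8.45% of all tested genes and below for 8.82%. Levels are given as CPM, the counts of a gene scaled to a common library size with TMM factors. In bulk tissue, fewer cells of a type and less RNA per cell cannot be told apart.

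Shh (Entrez 20423), the hedgehog ligand of the growing hair follicle, had 15.9, 8.66, 9.92 and 5.55 CPM in control samples 1, 2, 3 and 5. In Z1C2Z samples 1, 2, 4 and 5 it had 13.2, 15.3, 11.3 and 14.3 CPM. The highest and the lowest of all 8 samples were thus both control samples, and the Z1C2Z samples lay together between them. The means were 9.99 ± 4.31 CPM in the control group and 13.5 ± 1.69 CPM in the Z1C2Z group (SD, n = 4 each). The log2 fold change was 0.44 (standard error, SE, 0.27, adjusted p = 0.328 in edgeR), and its 95% interval ran from -0.18 to 1.06. Leaving out 1 sample gave log2 fold changes from 0.24 without control-5 to 0.74 without control-1, and a skeletal muscle score as covariate gave 0.83, none of them called (adjusted p between 0.0565 and 0.533 over all alternatives).

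Dhh (Entrez 13363), the ligand known from Schwann cells, was low. It had 2.24, 2.41, 2.78 and 3.04 CPM in control samples 1, 2, 3 and 5, and 1.61, 2.00, 1.91 and 2.86 CPM in Z1C2Z samples 1, 2, 4 and 5. Of the Z1C2Z samples 3 lay below all control samples and Z1C2Z-5 lay within their range. The log2 fold change was -0.33 (SE 0.23, adjusted p = 0.384 in edgeR), from 57 to 108 counts per sample. GENCODE M21 places an exon of Rhebl1 over Dhh on the same strand, so reads in the shared part could have been counted to either gene. Rhebl1 itself had a log2 fold change of 0.22 (adjusted p = 0.607 in edgeR).

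Ihh (Entrez 16147), a ligand best known from cartilage, was not detected in the control samples, which all had 0 counts. A count of 0 allows up to 3 counts, or between 0.0826 and 0.107 CPM in these libraries, for counting error only. The Z1C2Z samples had 2, 1, 0 and 0 counts, under the same limit, so no fold change is given.

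**Figure D1:**
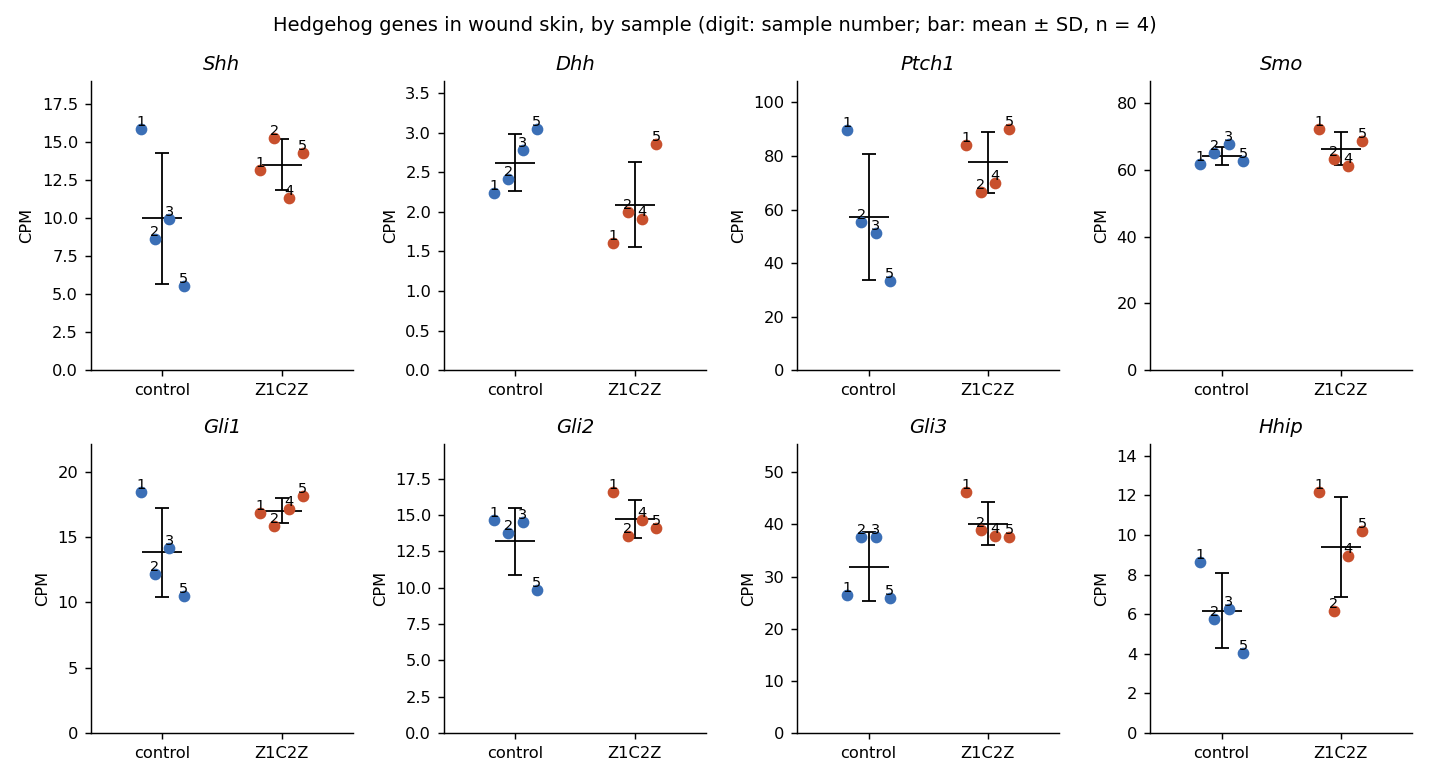
CPM of the 8 hedgehog genes that passed the low-count filter, with 1 panel per gene, 1 point per sample (the digit is the sample number) and a bar for the mean ± SD of 4 samples. Control-5 is the lowest of the 8 samples in 6 of the 8 panels, control-1 is the highest control sample for Shh, Ptch1, Gli1, Gli2 and Hhip, and the groups overlap in every panel.

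Ptch1 (Entrez 19206), the receptor and a target of the pathway, had its lowest value in control-5 and its highest control value in control-1, as Shh did, but was lowest of the Z1C2Z samples in Z1C2Z-2, where Shh was highest. It had 89.6, 55.2, 51.1 and 33.5 CPM in control samples 1, 2, 3 and 5, and 84.1, 66.6, 69.8 and 90.0 CPM in Z1C2Z samples 1, 2, 4 and 5. Control-1 stood with the highest Z1C2Z samples, and the other control samples lay below all Z1C2Z samples. The means were 57.4 ± 23.5 and 77.6 ± 11.3 CPM (SD, n = 4 each), and the log2 fold change came to 0.44 (SE 0.26, adjusted p = 0.302 in edgeR, 95% interval -0.15 to 1.02). This result turned on control-1: without it the log2 fold change was 0.73 with an edgeR adjusted p of 0.0486, and Ptch1 was then the one member called, against 9.97% of all genes in either direction. Without control-5 it was 0.26. In the other 13 alternatives Ptch1 was not called, and with the muscle score as covariate it had 0.86 (adjusted p = 0.135 in edgeR).

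Hhip (Entrez 15245), a membrane protein that binds hedgehog ligands and a target of the pathway, had the largest log2 fold change of the members. It had 8.63, 5.74, 6.28 and 4.03 CPM in control samples 1, 2, 3 and 5, and 12.2, 6.14, 8.96 and 10.2 CPM in Z1C2Z samples 1, 2, 4 and 5. Z1C2Z-2 lay among the control samples, below both control-1 and control-3, while the other Z1C2Z samples exceeded every control sample. The means were 6.17 ± 1.90 and 9.38 ± 2.53 CPM (SD, n = 4 each), and the log2 fold change came to 0.61 (SE 0.27, edgeR unadjusted p = 0.0480, adjusted p = 0.174). The adjusted p stayed between 0.0767 and 0.337 over 14 alternatives.

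Ptch1 and Hhip are the target genes among the members for which RefSeq's promoter table gave a sequence, and the 250 bases before the start site are shown because both genes are targets of the pathway. They are from GRCm38.p6, minus strand, 5′ to 3′, at chr13:63565736-63565985 for Ptch1 and chr8:80058009-80058258 for Hhip. Capitals mark a GC box, the letters GGGCGG on either strand.
Ptch1: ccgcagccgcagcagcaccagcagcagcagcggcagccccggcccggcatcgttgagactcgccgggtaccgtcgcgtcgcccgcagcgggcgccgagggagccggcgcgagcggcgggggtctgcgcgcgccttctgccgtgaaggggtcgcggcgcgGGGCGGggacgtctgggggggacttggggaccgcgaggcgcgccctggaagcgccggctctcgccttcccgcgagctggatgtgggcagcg
Hhip: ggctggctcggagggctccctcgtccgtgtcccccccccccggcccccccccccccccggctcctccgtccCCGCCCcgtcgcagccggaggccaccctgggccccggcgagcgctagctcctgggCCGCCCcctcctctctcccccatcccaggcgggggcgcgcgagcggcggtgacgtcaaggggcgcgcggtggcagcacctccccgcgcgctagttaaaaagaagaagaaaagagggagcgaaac
The Ptch1 stretch was 78.4% G and C and the Hhip stretch 76.0%, against a median of 52.4% over 32851 promoters. They held 1 and 2 GC boxes, a motif present in 32.7% of these stretches. The letters TATAAA occurred in neither, and in 12.4% of all. The GLI consensus TGGGTGGTC was searched on both strands with up to 1 mismatch in the windows from 250 bases before to 50 after the start. It occurred in 6.74% of all windows and in 0 of the 7 members with a window, which were Ptch1, Hhip, Dhh, Ihh, Smo, Gli2 and Gli3. These letters are merely not in these windows, and GLI sites farther away were not searched.

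Smo (Entrez 319757), the transducer that Ptch1 holds in check, was the steadiest member. It had between 61.7 and 67.7 CPM in the control samples and between 61.2 and 72.1 CPM in the Z1C2Z samples, so its highest value was 1.18 times its lowest over all 8 samples. The log2 fold change was 0.05 (SE 0.08, adjusted p = 0.750 in edgeR), with a 95% interval of -0.14 to 0.23. Smo is not itself a gauge of pathway activity, and its error was the smallest of the members.

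Gli1 (Entrez 14632), the GLI factor that is also a target of the pathway, had 18.4, 12.2, 14.2 and 10.5 CPM in control samples 1, 2, 3 and 5. The Z1C2Z samples lay close together at 16.8, 15.8, 17.2 and 18.2 CPM. As for Ptch1, 3 control samples lay below all Z1C2Z samples, and here control-1 lay above all of them. The means were 13.8 ± 3.44 and 17.0 ± 0.963 CPM (SD, n = 4 each), and the log2 fold change came to 0.30 (SE 0.17, adjusted p = 0.271 in edgeR). Without control-1 it was 0.47 (adjusted p = 0.0534 in edgeR), the lowest adjusted p of its alternatives, and without control-5 it was 0.19. Gli1 shares exon positions with Arhgap9 on the opposite strand in GENCODE M21, and the strand setting of the counting is not given in the sources used here. Arhgap9 had a log2 fold change of 0.14 (adjusted p = 0.543 in edgeR).

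Gli2 (Entrez 14633), mainly an activator of hedgehog targets, had a small log2 fold change, though its highest value was 1.69 times its lowest over all 8 samples. It had between 9.80 and 14.7 CPM in the control samples and between 13.6 and 16.6 CPM in the Z1C2Z samples (log2 fold change 0.16, SE 0.15, adjusted p = 0.503 in edgeR). Control-5 was its lowest sample, and without it the log2 fold change was 0.04.

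Gli3 (Entrez 14634), mainly a repressor when ligand is absent, did not follow Shh. It had 26.5, 37.7, 37.6 and 25.9 CPM in control samples 1, 2, 3 and 5, and 46.3, 39.0, 37.8 and 37.7 CPM in Z1C2Z samples 1, 2, 4 and 5. Control-1 and control-5, the extremes for Shh, were both low here, while control-2 lay within the range of the Z1C2Z samples and control-3 just below it. The log2 fold change was 0.33 (SE 0.15, adjusted p = 0.187 in edgeR, 95% interval -0.01 to 0.67). Between them, the GLI factors thus split by sample: control-1 had 0.696 Gli1 counts per Gli3 count, against 0.323 to 0.482 in the other 7 samples.

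**Figure D2:**
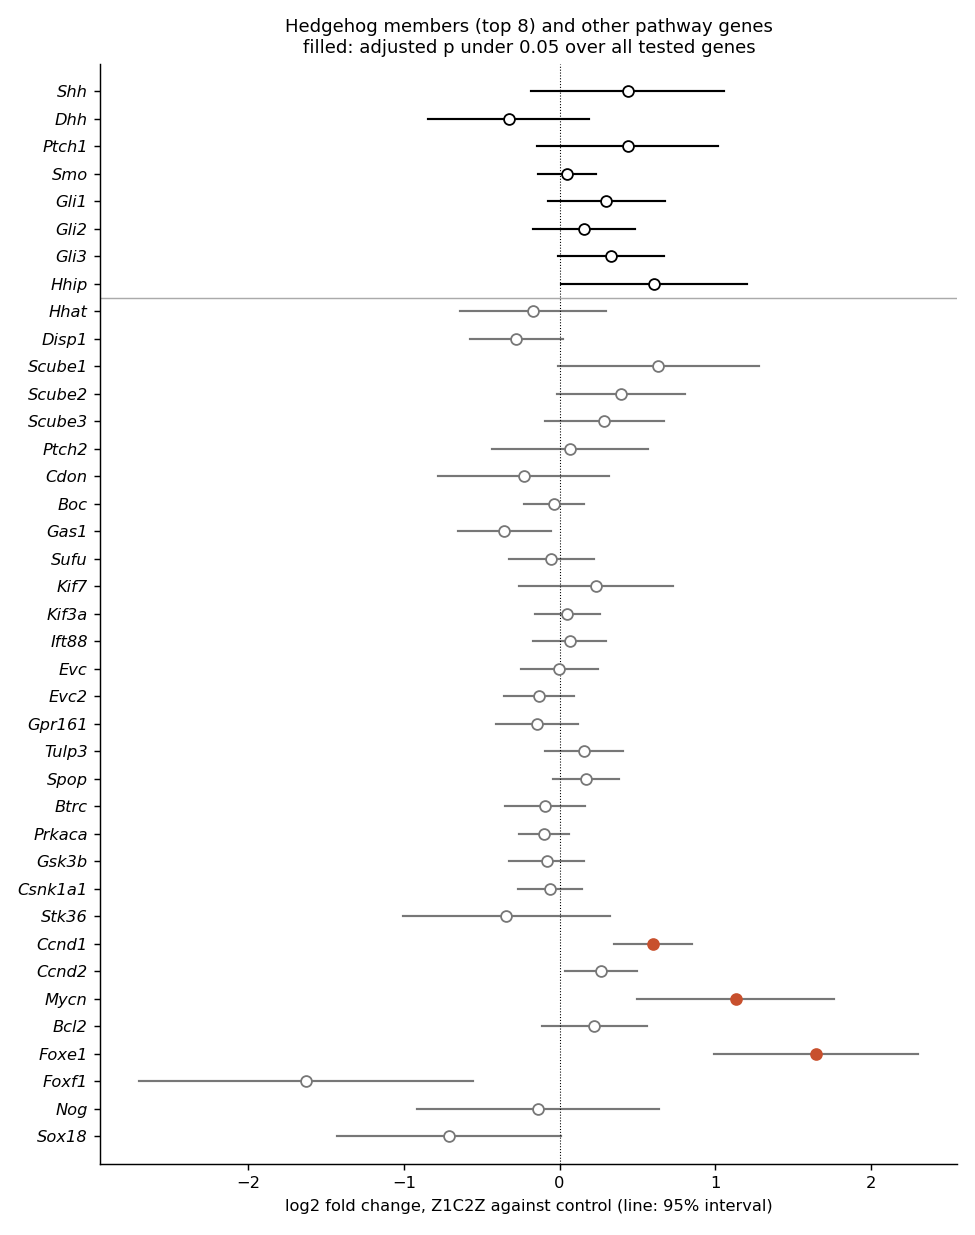
Log2 fold changes of the 8 tested hedgehog genes (black, top) and of 31 other pathway genes (grey), each with its 95% interval. Filled points mark an adjusted p under 0.05 over all tested genes, and these are Ccnd1, Mycn and Foxe1, while the intervals of the members Shh, Dhh, Ptch1, Smo, Gli1, Gli2 and Gli3 contain 0.

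The spread among the control samples was the main feature of Shh, Ptch1 and Gli1. From control-5 to control-1, Shh differed 2.86-fold, Ptch1 2.68-fold, Hhip 2.14-fold and Gli1 1.76-fold. Among the 4 Z1C2Z samples the highest value of Shh was 1.35 times the lowest, as for Ptch1, and for Gli1 1.15 times. For Hhip it was 1.98 times, so Hhip spread nearly as widely there as among the control samples. Hhip followed Shh less closely, with 0.402 Hhip counts per Shh count in Z1C2Z-2 and 0.925 in Z1C2Z-1. The ratio of counts within a library needs no scaling between libraries. There were 5.65, 6.38, 5.15 and 6.04 Ptch1 counts per Shh count in control samples 1, 2, 3 and 5. The Z1C2Z samples had 6.39, 4.36, 6.16 and 6.29, so 7 of the 8 samples lay between 5.15 and 6.39 and Z1C2Z-2 stood lower. Ptch1 counts per Smo count ranged more widely, from 0.536 in control-5 to 1.45 in control-1, with the Z1C2Z samples between 1.05 and 1.31. These ratios compare samples and not the levels of the genes, whose lengths differ.

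Taken as a sum, genes of the hair matrix, inner root sheath and shaft did not follow Shh across the control samples. A list of 14 such genes was called higher in the Z1C2Z group for 13, with a median log2 fold change of 2.46, and every Z1C2Z sample exceeded every control sample for all 14. Over all tested genes 4.28% were called higher, and 8.45% had every Z1C2Z sample above every control sample. The list was chosen with earlier results of these data known, so its counts are no independent test of hair genes. Its count of calls was 0 when control-2 or control-5, or any of Z1C2Z samples 1, 2 and 4, was left out. It was also 0 with the muscle score. Those fits called few genes of the whole table: 123 without control-2, 7 with the muscle score and 0 in the others. The median log2 fold change stayed between 1.75 and 2.91 in all 14 alternatives. The summed level was 747, 2494, 3866 and 668 CPM in control samples 1, 2, 3 and 5, and 9600, 16300, 15610 and 4756 CPM in Z1C2Z samples 1, 2, 4 and 5. Control-1 and control-5 thus had the lowest hair gene sums of all samples and, respectively, the highest and the lowest Shh. Tchh, which encodes trichohyalin of the inner root sheath, and Krt71, a keratin of the same layer, had the highest levels of the list. Krt71 rose from 394 ± 314 to 2200 ± 999 CPM (SD, n = 4 each, log2 fold change 2.48, adjusted p = 0.0449 in edgeR), and Tchh had 670 ± 609 and 4120 ± 1781 CPM (adjusted p = 0.0568 in edgeR). The part of hair follicle content in the hedgehog values was not tested.

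**Figure D3:**
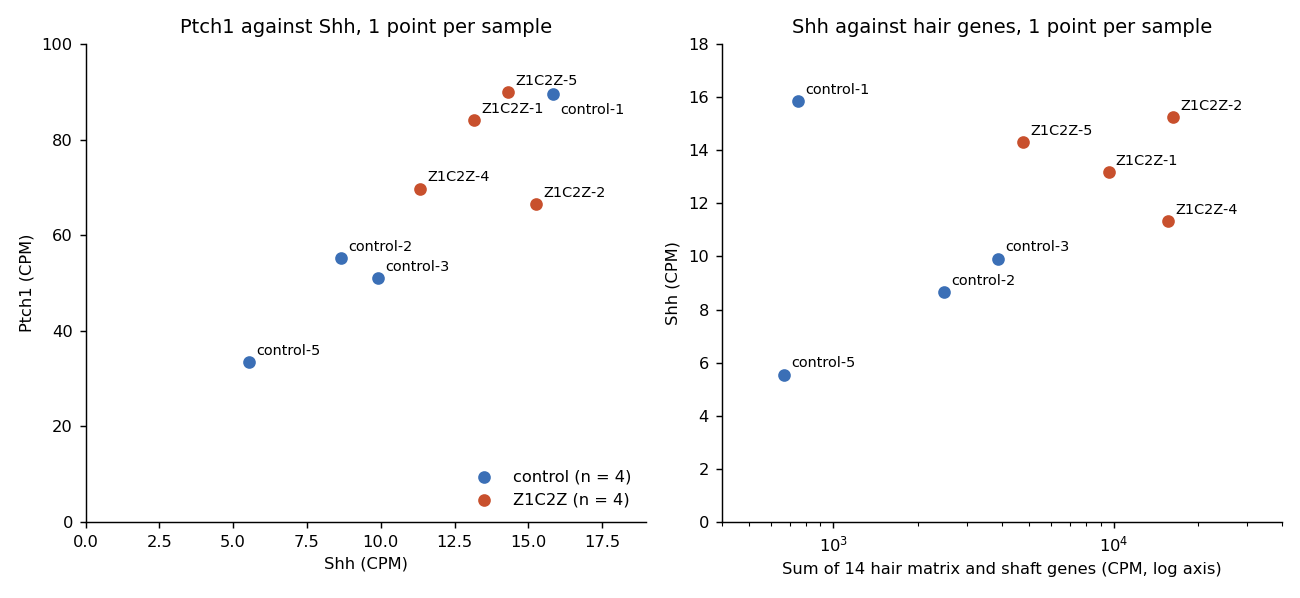
Left, Ptch1 against Shh in CPM. Right, Shh in CPM against the summed CPM of 14 hair matrix, inner root sheath and shaft genes on a log axis. Both panels have 1 labelled point per sample. Ptch1 is lowest in control-5 and near its top in control-1, as Shh is, whereas on the right control-1 and control-5 share the lowest hair gene sums with 15.9 and 5.55 CPM of Shh.

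Compared per length of annotated exon, Smo was the most abundant member, with 11.4 ± 0.480 CPM per kilobase in the control group and 11.8 ± 0.890 in the Z1C2Z group (SD, n = 4 each). Ptch1 followed with 4.04 ± 1.65 and 5.47 ± 0.793, and Shh with 3.51 ± 1.52 and 4.75 ± 0.595. Gli3 had 3.33 ± 0.690 and 4.19 ± 0.428, and Gli1 2.76 ± 0.689 and 3.40 ± 0.193. Gli2 had 1.92 ± 0.333 and 2.14 ± 0.192. Of the members that passed the filter, Hhip and Dhh were lowest, at 0.680 ± 0.210 and 0.595 ± 0.0822 in the control group. Ptch1, Shh, Gli3 and Gli1 were neighbours whose ranges overlapped. Shh lay above Gli3 in 4 of the 8 samples, so their order was not resolved, and Hhip lay above Dhh in 7. Smo lay above Ptch1, Gli1 above Gli2, and Gli2 above Hhip in all 8 samples. The exon lengths are those of GENCODE M21 and count every annotated exon, whether or not it is used in skin.

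**Figure D4:**
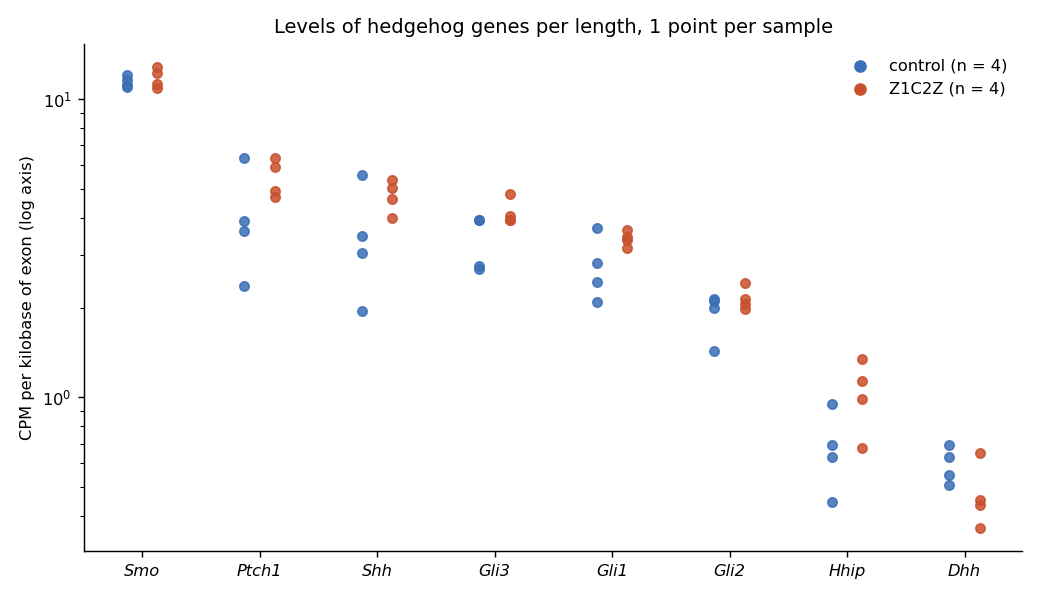
CPM per kilobase of annotated exon (log axis) of 8 hedgehog genes in order of their control mean, with 1 point per sample, control samples left and Z1C2Z samples right within each gene. Smo lies above all other members in every sample, and Hhip and Dhh lie lowest of the 8, with control means of 0.680 and 0.595.

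Beyond the members, 32 other genes of the pathway were listed by role, and 31 passed the low-count filter. Of these, 3 were called higher in the Z1C2Z group, 0 lower and 28 neither, with a median log2 fold change of -0.04. Over all tested genes 4.28% were called higher and 3.85% lower. At an unadjusted p under 0.05 there were 6 of the 31, a smaller share than the 28% of all tested genes. DESeq2 called 4 higher, the same 3 genes and Lrp2, and 1 lower, Foxf1, where it called 16.5% of all genes. All 3 called genes were among the 8 reported target genes. None of the genes for ligand release (5 tested), for receptors (4 tested) or for the cilium and cytoplasm (14 tested) was called. The pathway annotation deposited with the counts lists 53 genes in KEGG's Hedgehog signaling pathway, the 9 members included. Of these 51 were tested, 1 was called higher, Ccnd1, and 0 lower, with a median log2 fold change of -0.05.

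Foxe1, a forkhead factor of the hair follicle, rose most among these targets. It had 1.21, 2.61, 2.73 and 1.41 CPM in control samples 1, 2, 3 and 5, and 5.61, 7.62, 6.63 and 5.19 CPM in Z1C2Z samples 1, 2, 4 and 5. The groups did not overlap, and the log2 fold change was 1.65 (SE 0.29, adjusted p = 0.0299 in edgeR). Mycn, which encodes a growth-promoting transcription factor, rose from 8.98 ± 3.50 to 19.6 ± 4.86 CPM (SD, n = 4 each), and the log2 fold change came to 1.13 (SE 0.28, adjusted p = 0.0438 in edgeR). Ccnd1, which encodes cyclin D1 of the cell cycle, rose from 122 ± 16.0 to 185 ± 14.1 CPM (SD, n = 4 each), and the log2 fold change came to 0.60 (SE 0.11, adjusted p = 0.0300 in edgeR). For Mycn and Ccnd1, too, every Z1C2Z sample exceeded every control sample. In Mycn, control-1 was the highest and control-5 the lowest control sample, as in Shh, whereas in Foxe1 both were low, as in the hair genes. These calls lay near the threshold. None of the 3 passed when control-2 or control-5, or any of Z1C2Z samples 1, 2 and 4, was left out, with adjusted p in edgeR between 0.0523 and 0.122. Of the whole table, 123 genes were called without control-2 and 0 in the others of these fits. Without control-3, Ccnd1 and Foxe1 passed and Mycn did not (adjusted p = 0.0696 in edgeR). In none of these fits did the direction turn.

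Foxf1, a forkhead factor of mesenchyme reported as a hedgehog target, went the other way without passing the test. It had 2.67, 0.971, 1.38 and 2.37 CPM in control samples 1, 2, 3 and 5, and 0.592, 0.674, 0.201 and 0.915 CPM in Z1C2Z samples 1, 2, 4 and 5. Every Z1C2Z sample was below every control sample (log2 fold change -1.63, SE 0.48, adjusted p = 0.0661 in edgeR), and it was called with DESeq2 (adjusted p = 0.00789) and without Z1C2Z-5 (adjusted p = 0.0499 in edgeR). Sox18, an endothelial and dermal papilla factor, had a log2 fold change of -0.71 with overlapping groups (adjusted p = 0.183 in edgeR).

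Among genes of ligand release, Scube1 and Scube2, which encode secreted proteins (SCUBE2 carries lipid-modified ligand away from the cell), had log2 fold changes of 0.63 and 0.40 (adjusted p = 0.185 and 0.191 in edgeR). Among the receptors, the co-receptor genes Gas1 and Cdon had -0.35 and -0.23 (adjusted p = 0.121 and 0.569 in edgeR). Of the genes of the cilium and cytoplasm, Stk36, a kinase gene, and Kif7, a ciliary kinesin gene, had the largest values, at -0.34 and 0.24 (adjusted p = 0.478 and 0.512 in edgeR). Kif7 had 0.07 without control-1 and turned to -0.21 with the muscle score as covariate, where Stk36 had -0.93. Lrp2, an endocytic receptor gene, did not pass the low-count filter, with 3 to 8 counts in the control samples and 23, 36, 27 and 7 in Z1C2Z samples 1, 2, 4 and 5. Fitted without the filter it had a log2 fold change of 2.19 (adjusted p = 0.0465 in edgeR), with Z1C2Z-5 within the range of the control samples.

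Markers of the cells that send or receive hedgehog ligands, and of other tissue in the samples, were summed for the same libraries, and no marker was at 0 in all samples. None of the calls in these lists held when control-2 or control-5, or any of Z1C2Z samples 1, 2 and 4, was left out. Of the whole table, too, only 123 genes were called without control-2 and 0 in the others of these fits. In the fit with all samples, 4.28% of all tested genes were called higher and 3.85% lower. The tissue label was met by the epidermal keratin genes Krt5, Krt14, Krt1 and Krt10, with control means of 1752, 2935, 3676 and 3691 CPM. Highest of the skin list were the collagen genes Col3a1 (32070 ± 5612 CPM in the control group, SD, n = 4) and Col1a1, which other connective tissue also expresses. Of the 6 skin genes 0 were called. The log2 fold changes were -0.53 for Col3a1, -0.57 for Col1a1 and -0.19 for Krt14, but 0.11, 0.27 and 0.54 for Krt5, Krt1 and Krt10. The skin sums were 47810 to 64480 CPM in the control and 39740 to 53420 CPM in the Z1C2Z group. For the dermal papilla, which receives Shh, 1 of 7 genes was called higher, Wif1, and the sums were 56.8 to 86.2 and 67.2 to 69.7 CPM. For Schwann cells, the known source of Dhh, 0 of 8 were called, and the sums were 67.9 to 116 and 91.5 to 128 CPM, with Mbp among the highest. All 8 Schwann cell genes had a log2 fold change over 0, unlike Dhh. For the sebaceous gland 1 of 7 was called higher, the melanocortin receptor gene Mc5r, and the sums were 325 to 684 and 443 to 656 CPM, with Fa2h and Elovl3 highest. For proliferation 0 of 8 were called, and the sums were 508 to 658 and 635 to 735 CPM, with Mki67 and Top2a highest. For neutrophils 0 of 6 were called, and the sums were 578 to 1504 and 169 to 663 CPM, with S100a9 and S100a8 highest. All 6 neutrophil genes had a log2 fold change under 0, with a median of -1.15. For skeletal muscle 2 of 8 were called lower, Acta1 and Myh1, and the sums were 3439 to 6421 and 2889 to 3293 CPM, without overlap. Control-1, the control sample with the highest Shh, Ptch1, Gli1 and Hhip, also had the highest muscle sum, 6421 CPM. The next highest muscle sum, 4576 CPM, was that of control-5, which was lowest for these hedgehog genes. Control-1 further had the highest dermal papilla and sebaceous gland sums of all samples, 86.2 and 684 CPM. The part of these tissues in the hedgehog values was not tested. With a skeletal muscle score as covariate 0 members were called in edgeR, but so few genes were called at all, 0.0462%, that this says little of the members. Of the 8, 4 then had an unadjusted p under 0.05 (Shh, Ptch1, Gli1 and Hhip), against 24.8% of all genes. Because the score was higher in every control sample than in any Z1C2Z sample, muscle content and treatment cannot be told apart in this fit.

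Likeness of profile was measured as the root mean square difference of mean-centred log2 CPM over the 8 samples, leaving out the members. Closest to Shh were Hoxa9 (0.123), Serinc4 (0.134) and Cnih2 (0.144), where the median over all tested genes was 0.528. Closest to Ptch1 were Hoxa9 (0.111), Serinc4 (0.151) and Map3k15 (0.155). Shh and Ptch1 thus had Hoxa9 and Serinc4 in common, and they differed from each other by 0.180. Gli1 was closest to Lgr4 (0.0672), Cadm1 (0.0731) and Gm51425 (0.0744), and Hhip to Perm1 (0.157), Srcin1 (0.183) and Fras1 (0.191). Dcaf7 (0.0371) and Wdr33 (0.0377) were among the 3 closest to Smo. Gli2 was closest to Zfp944 (0.0714), Zfp595 (0.0724) and Slc35e2 (0.0798), and Gli3 to Plekhg1 (0.0508), Myo5b (0.0599) and Ttc38 (0.0754). Dhh was closest to Trp53i13 (0.110), Trex1 (0.122) and Syt11 (0.122). A small difference is easier to reach for a gene that varies little, so these values rank genes for 1 member and not members against each other. Among the members, Dhh differed by 0.698 from Hhip, 0.678 from Shh and 0.663 from Ptch1, but by 0.314 from Smo.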

How the data were processed

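The authors deposited raw read counts per gene for 8 samples, without normalization. Per the labels, ribosomal RNA was depleted and the second cDNA strand carried dUTP. The aligner, counting program, genome build, annotation and strand setting are not given in the sources used here, so the counts are given without gene coordinates. Of columns with per-sample values, 0 were left unused. Groups come from the sample titles, whose numbers match the study's control and Z1C2Z samples.

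The test was edgeR 4.0.16 under R 4.3.3 (filterByExpr, TMM, quasi-likelihood test, no covariates, Benjamini-Hochberg over 15147 genes, threshold 0.05). Standard errors and 95% intervals come from the F statistic and its degrees of freedom. CPM used TMM-scaled library sizes, and log2 CPM a prior count of 2. The limit of 3 counts covers counting error only. No 2 samples were alike within sampling noise (smallest chi-square per degree of freedom 21.7), so none was merged. The fit was tested on simulated counts.

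Alternatives were RLE size factors, no filter, at least 10 counts in every sample, DESeq2 1.42.0, a replicate block, a skeletal muscle score as covariate, and each sample left out in turn. Named genes were all members, every called gene of the other pathway list with the 2 largest other changes per role, the 3 most alike genes per member, and the 2 most abundant genes per marker list. Further genes of these lists (Lrp2, Mc5r, Krt5, Krt14, Krt1, Krt10) and the overlapping genes Rhebl1 and Arhgap9 were named after their values were seen, as were the count ratios. Of the genes this rule selects, some are not reported here. The members and lists were chosen with earlier results of these data known. Promoters came from RefSeq (GRCm38.p6), with none used here for Shh and Gli1. Exon lengths came from GENCODE M21 by symbol for all 9 members.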

Additional observations from a re-analysis of the deposited data

Results flagged for a closer look

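Among the 78 groups of 4 samples formed by the tested members and the other pathway genes, 2 held a sample whose gap to its nearest neighbour was large against the range of the group, by Dixon's test at a critical value of 0.829. Chance flags about 1 in 20 groups. Both were Z1C2Z-1. For Gli3 it had 46.2 CPM, where the other Z1C2Z samples had 37.7 to 39.0 CPM. For Scube1 it had 3.89 CPM, where the other Z1C2Z samples had 2.18 to 2.41 CPM. Without Z1C2Z-1 the direction of both genes held, and neither was called with or without it.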

How the results depend on the processing

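No member was called under 13 of the 14 alternatives, and leaving out 1 sample gave between 0 and 1 members called, the 1 being Ptch1 without control-1. The sign of the log2 fold change held in all 14 for each member except Smo, which had -0.0049 with the muscle score as covariate. Among the other named pathway genes, Kif7 and Cdon each changed sign once, to -0.21 with the muscle score and to 0.01 with the replicate block, neither called. The 3 called genes of the other pathway list became 5 with DESeq2, 0 with the muscle score (7 at an unadjusted p under 0.05), 1 (Foxe1) with the replicate block, and between 0 and 5 when 1 sample was left out. The 5 genes were the same with DESeq2 and without Z1C2Z-5: Ccnd1, Mycn, Foxe1, Foxf1 and Lrp2. Over all genes, 1231 were called in the fit as reported, 2743 with DESeq2, 554 with the replicate block, 7 with the muscle score, and between 0 and 1745 without 1 sample. The 4 fits with 0 calls, leaving out control-5 or Z1C2Z samples 1, 2 or 4, had between 3100 and 4208 genes at an unadjusted p under 0.05. The replicate block used the sample numbers 1, 2 and 5 that both groups share, and control-3 and Z1C2Z-4 then had no partner and gave nothing to the group difference. The numbers were not found to pair the samples: deviations from the group means correlated at -0.101, -0.0623 and 0.323 across genes for the numbers 1, 2 and 5, and control-1 and control-2 correlated best with samples of another number. Ihh, at 0 to 2 counts per sample, was too low to compare between the groups, and whether depth limits it was not tested.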

Other observations

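Within the dermal papilla list, the genes with the highest levels went in opposite directions. Wif1, a secreted Wnt inhibitor, rose from 19.5 ± 2.30 to 28.6 ± 3.21 CPM (SD, n = 4 each, log2 fold change 0.56, edgeR adjusted p = 0.0341), with every Z1C2Z sample above every control sample. Wif1 was not called when control-2 or control-5, or any of Z1C2Z samples 1, 2 and 4, was left out. Those fits called 123 genes of the whole table without control-2 and 0 in the others. Crabp1, a retinoic acid binding protein, had 42.2 ± 15.3 and 24.1 ± 2.71 CPM (SD, n = 4 each, log2 fold change -0.81, edgeR adjusted p = 0.0695).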
